A study of Mus musculus with 3 samples.

Results

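The tissue inhibitors of metalloproteinases form a family of 4 genes in the mouse, Timp1, Timp2, Timp3 and Timp4, and all 4 were found among the 32285 genes of the count matrices. The members were taken by symbol. Dorsal skin of mice labelled as female wild-type C57BL/6J of 8 weeks was dissociated at full thickness. Its cells were sequenced in droplets from the 3′ ends of their transcripts, with 1 library for each of 3 conditions. The study's own description gives 8 weeks for the mice as purchased, which may not count the 12 weeks of exposure. The age at sampling is not stated. The CON library came from skin without irradiation. The UV library came from skin exposed every other day over 12 weeks to UVA (0.60 mW/cm2) together with UVB (3.5 mW/cm2). The Rux library came from skin that was irradiated in the same way and given an ointment with 1.5% ruxolitinib right after each irradiation. Ruxolitinib is an inhibitor of the kinases JAK1 and JAK2, which activate STAT transcription factors. The sources used here do not give the number of mice behind a library, and the labels do not say whether CON and UV skin received the vehicle that the study's own description names for them. With 1 library per condition a difference between conditions has no replicate check, so no test was made and no p-value is given.

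TIMP proteins are secreted and block matrix metalloproteinases (MMPs) by filling the active site of the enzyme, and together with the MMPs they set how fast collagen and other matrix proteins are broken down. Timp1 is known as the member induced by cytokines and injury, Timp2 as a broadly made member that also takes part with Mmp14 in activating pro-Mmp2, Timp3 as the member that stays bound to the matrix and also blocks ADAM and ADAMTS proteases, and Timp4 as the member with the most restricted expression. In skin, fibroblasts are a main source of both MMPs and TIMPs, and the balance between them is a standard theme of work on photoaging.

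The deposited matrices held 11287 to 13170 cell barcodes and 131570327 to 165337289 UMIs per library, where each UMI (unique molecular identifier) stands for 1 captured transcript molecule. After filters and doublet removal 9299 to 10777 cells per library remained, with medians of 7549, 7661 and 9432 UMIs in CON, UV and Rux. Libraries shared 28 to 50 barcodes in pairs. All 3 libraries are labelled female, but the Y-linked gene Ddx3y stood at 110, 115 and 121 CPM in CON, UV and Rux while Xist stood at 0.0921, 0.119 and 0.112 CPM, so the sex in the labels is at odds with the RNA in every library. The clusters were named from marker genes, and 11 classes had at least 50 cells in every library. They were fibroblast-like (FB), vascular endothelial-like (VEC), lymphatic endothelial-like (LEC), pericyte-like (PCY), Schwann-like (SCH), myeloid-like (MYE), lymphocyte-like (LYM), mast-cell-like (MC), basal-keratinocyte-like (KB), inner-root-sheath-like (HFI) and general epithelial-like (EPI) cells. Every marker fixed for FB, VEC, LEC, PCY, SCH, LYM, MC, KB and HFI was highest in its own class. That held for 6 of 8 markers in MYE-like cells and for 1 of 8 in EPI-like cells. Single clusters without a class name were not set beside the classes there. The unnamed cluster led by Rgs5 had the highest cluster level of that pericyte marker, 3126 CPM. The name EPI was used for epithelial clusters between basal, suprabasal, hair-follicle and sebaceous markers. The FB-like class held 3289 cells of CON, 4848 of UV and 4535 of Rux. These cells were not the same mix in each library, since cluster 0 (led by Myoc and Cilp) held 45.6% of them in CON and 21.4% and 21.6% in UV and Rux, while clusters 1 (Myo16, Cthrc1) and 2 (Saa3, Mmp3) held 9.91% and 10.9% in CON, 20.1% and 17.9% in UV, and 25.4% and 22.0% in Rux.

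Levels are given in CPM, the usual rescaling of the UMIs of a gene by all UMIs of its class and library. The counts come from the 3′ end of transcripts, 1 UMI per molecule, and were not divided by gene length, so the levels of different genes can be set side by side. Values in parentheses are exact 95% Poisson intervals for levels, exact Clopper-Pearson intervals for shares of cells and conditional exact intervals for ratios. All of them cover counting error only. A level is called higher or lower between libraries only when it was past 1.5-fold, which is 0.58 on the log2 scale.

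In GRCm38 coordinates Timp1 (ENSMUSG00000001131) lies at chrX:20870166-20874735 on the plus strand, Timp2 (ENSMUSG00000017466) at chr11:118301069-118355740 on the minus strand, Timp3 (ENSMUSG00000020044) at chr10:86300372-86349506 on the plus strand and Timp4 (ENSMUSG00000030317) at chr6:115241892-115252205 on the minus strand. Timp1, Timp3 and Timp4 lie inside the synapsin genes Syn1, Syn3 and Syn2, each on the opposite strand to its host, and Timp2 lies in no synapsin gene. Synapsins are known as proteins of synaptic vesicles in neurons. The 250 bases before the RefSeq start site are shown for Timp1 and Timp2, which of the 3 members with enough UMIs in FB-like cells had the largest and the smallest log2 ratio by size between Rux and UV there, with the letters of an SP1-type GC box in capitals, read 5′ to 3′ on the strand of the gene (GRCm38.p6, chrX:20869916-20870165 and chr11:118355412-118355661).
Timp1: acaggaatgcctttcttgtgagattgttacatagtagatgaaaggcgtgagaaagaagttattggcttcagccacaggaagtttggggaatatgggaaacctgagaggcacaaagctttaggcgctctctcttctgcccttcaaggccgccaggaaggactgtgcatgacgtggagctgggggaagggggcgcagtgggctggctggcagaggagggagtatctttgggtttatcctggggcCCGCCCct
Timp2: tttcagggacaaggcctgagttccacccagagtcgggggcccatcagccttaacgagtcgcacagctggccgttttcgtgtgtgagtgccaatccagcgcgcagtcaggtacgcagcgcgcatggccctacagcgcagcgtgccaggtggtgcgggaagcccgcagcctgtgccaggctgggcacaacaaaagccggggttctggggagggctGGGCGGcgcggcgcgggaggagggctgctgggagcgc
The Timp2 window is richer in G and C, with 68.0% GC and 21 CpG pairs against 54.4% and 6 in the Timp1 window. The GC box (GGGCGG or CCGCCC) occurs once in the Timp1, Timp2 and Timp3 windows, 8, 37 and 15 bases before the start, and 32.9% of the 27025 RefSeq promoter windows of this length hold it. The letters of an AP-1 site (TGAGTCA or TGACTCA), of a STAT site (TTCNNNGAA) and of a TATA box (TATAAA or TTTATA) occur in none of the 4 TIMP windows, against 4.43%, 7.18% and 13.0% of all windows. No 2 matches overlap. The RefSeq start of Timp2 lies inside the gene span given above. These are matches of letters and say nothing of binding.

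The 4 genes did not all have their highest level in the same class. Among the 11 classes compared, FB-like cells had the highest Timp2 level in every library, LEC-like cells the highest Timp3 level, and PCY-like and VEC-like cells the highest Timp4 levels. Timp1 was highest in PCY-like cells of CON and in FB-like cells of UV and Rux. The class with the highest level was the same in 12 of 12 gene and library pairs under 7 of the 8 alternative settings and in 11 of 12 when every cell had equal weight. Unnamed clusters were left out of this ranking, and some stood above the highest class. The cluster led by Gdf10 had 2135, 2596 and 2022 CPM of Timp2 in CON, UV and Rux, and 359, 584 and 461 CPM of Timp1. Its cells were shallow, at 0.234 of the library median of UMIs. Its marker scores for haemoglobin genes (3.675) and fibroblasts (3.667) were nearly equal. The cluster led by Rgs5 had 3383, 2615 and 2949 CPM of Timp3.

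**Figure D1:**
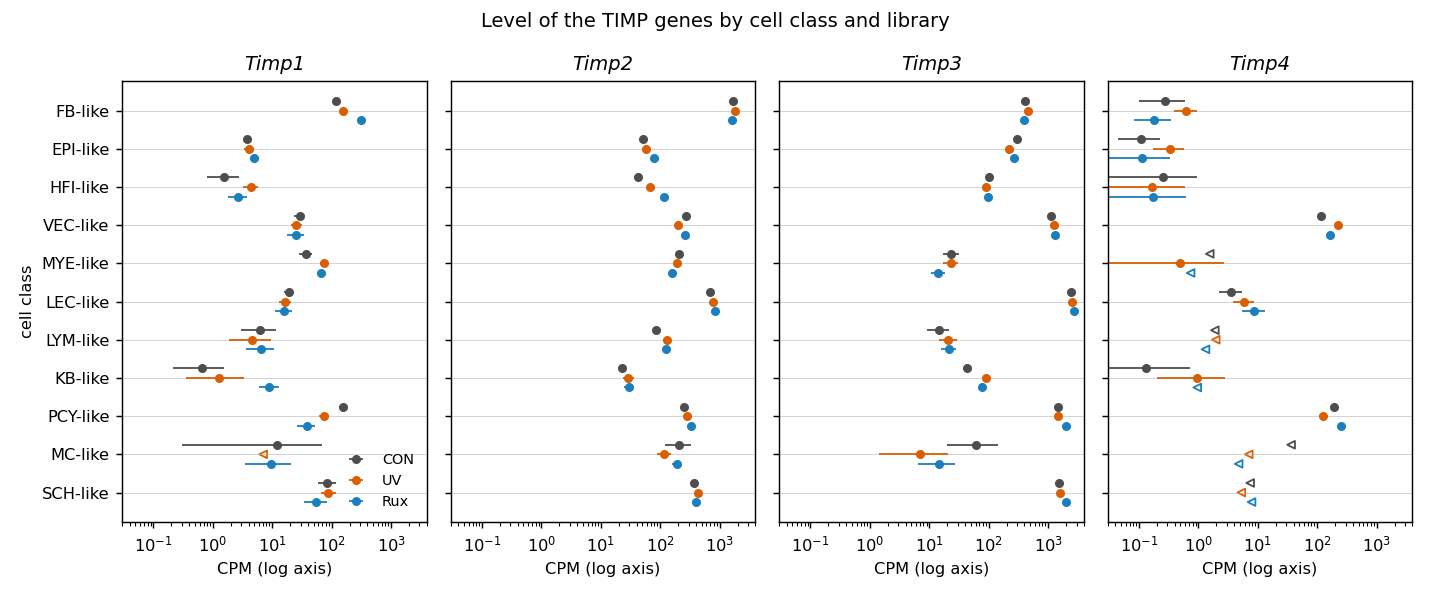
Level of each TIMP gene (CPM, log axis) in 11 cell classes for CON (grey), UV (orange) and Rux (blue), with exact 95% Poisson intervals that cover counting error only, and open triangles at the value of 3 UMIs where none was counted. Timp2 stands at 1634 to 1794 CPM in FB-like cells, Timp3 at 2451 to 2698 CPM in LEC-like cells, and Timp4 at 118 CPM or more in VEC-like and PCY-like cells but below 9 CPM in every other class.

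Few of the TIMP ratios between libraries were past 1.5-fold, and the counts below are set beside the share of all genes that were. A gene entered with a mean of at least 10 CPM in the 2 libraries and at least 50 UMIs in them together. In FB-like cells 3 TIMP genes entered, of which none was past 1.5-fold between UV and CON, where 14.4% of all genes were, and 1 (Timp1, higher) between Rux and UV, where 8.78% were. Most other classes had 1 or none. In EPI-like cells neither Timp2 nor Timp3 was past it in either comparison, against 7.94% and 5.43% of all genes. In HFI-like cells Timp2 was higher in UV than in CON and higher again in Rux, with backgrounds of 15.2% and 5.10%.

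Among the vascular and nerve classes, 1 of 4 TIMP genes in VEC-like cells was past 1.5-fold between UV and CON (Timp4, higher) and 0 of 4 between Rux and UV, against 12.7% and 12.6% of all genes. LEC-like cells had 0 of 3 in both comparisons, against 11.5% and 12.0%. PCY-like cells had 2 of 4 in both, with Timp1 lower each time and Timp4 lower in UV than in CON and higher in Rux than in UV, against 18.1% and 14.6%. SCH-like cells had 0 of 3 and then 1 of 3 (Timp1, lower in Rux), against 15.4% and 15.1%. The interval of that Timp1 log2 ratio, −1.49 to 0.08, included 0.

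Among the immune classes and basal keratinocytes, MYE-like cells had 1 of 3 in each comparison, Timp1 higher in UV than in CON and Timp3 lower in Rux than in UV, against 17.2% and 18.6% of all genes. LYM-like cells had 0 of 2 in both, against 21.4% and 8.88%. KB-like cells had 1 of 2 (Timp3, higher in UV) and 0 of 2, against 24.3% and 13.0%. In MC-like cells Timp2, the only TIMP gene that entered, was lower in UV than in CON and higher in Rux than in UV, against 34.0% and 12.5%. With 17 Timp2 UMIs in CON, the interval of the UV over CON log2 ratio was −1.63 to 0.07 and so included 0. The median log2 ratio over all genes lay at −0.10 in FB-like cells between UV and CON, at −0.11 in HFI-like and MYE-like cells, and nearer to 0 between Rux and UV. The 2 comparisons share the UV library, so a low or high value there moves both.

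**Figure D2:**
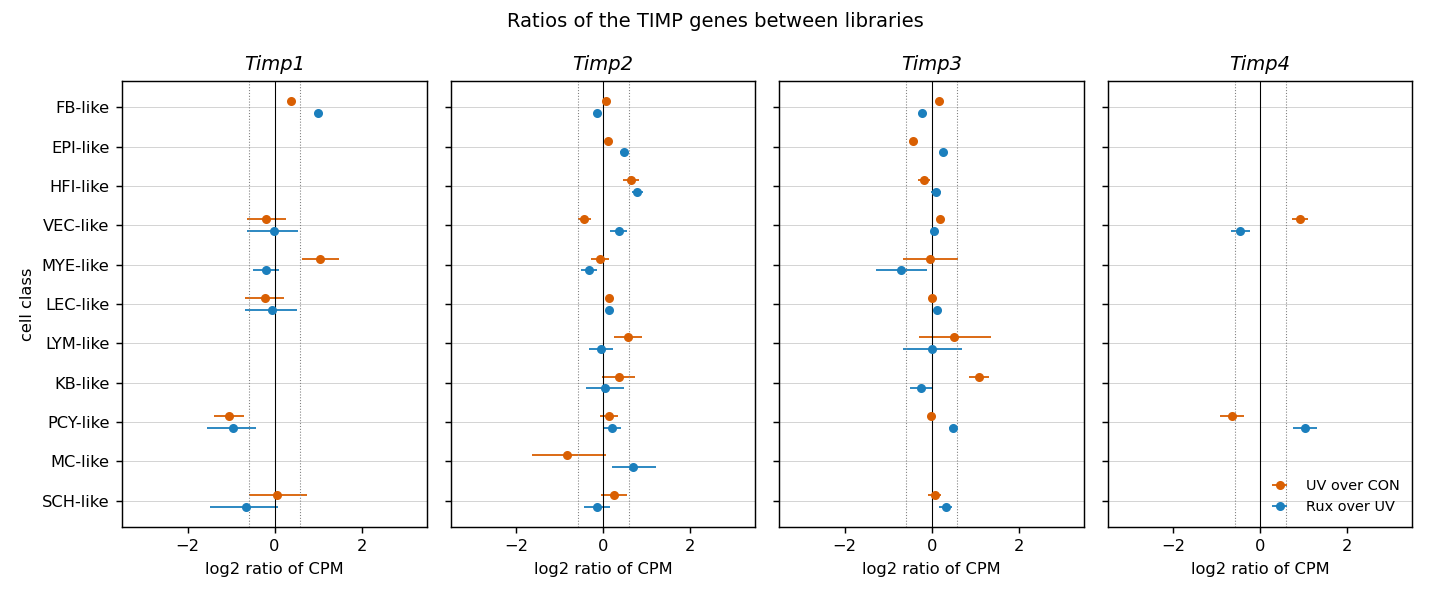
Log2 ratio of CPM for UV over CON (orange) and Rux over UV (blue) in each class where the gene had enough UMIs, with conditional exact 95% intervals that cover counting error only and dotted lines at 1.5-fold. Timp2 and Timp3 lie within the dotted lines in most classes, Timp1 of FB-like cells lies past the line only for Rux over UV, and Timp4 moves in opposite directions in VEC-like and PCY-like cells.

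Timp2 was the leading TIMP gene of FB-like cells. Its level there was 1708 (1690 to 1725) CPM in CON, 1794 (1780 to 1808) CPM in UV and 1634 (1623 to 1645) CPM in Rux, which ranked it 52nd, 56th and 73rd of the genes detected in the class. Its log2 ratio was 0.07 for UV over CON and −0.13 for Rux over UV. The 3 levels lay close together, although their counting intervals did not overlap. Timp2 made up 76.4%, 74.5% and 69.9% of all TIMP UMIs of FB-like cells.

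After thinning every cell to 2000 UMIs, 90.2%, 93.3% and 90.8% of FB-like cells had a Timp2 UMI in CON, UV and Rux, with 139, 237 and 120 shallower cells left out. Without thinning the shares were 96.4%, 97.4% and 98.0%, at median depths of 6045, 7296.5 and 9770 UMIs. LYM-like cells, a class in which free RNA from other cells can be gauged, had a thinned Timp2 share of 11.1%, 25.3% and 16.2% with 10, 11 and 15 cells left out, and 32.7%, 41.7% and 38.9% without thinning, at median depths of 5431.5, 5405 and 5610.5 UMIs. Timp2 was thus detected in nearly all FB-like cells and well above the LYM-like share in every library. In LYM-like cells Timp2 stood at 5.03%, 7.13% and 7.59% of its FB-like level, while 5 fibroblast genes (Col1a1, Col1a2, Col3a1, Dcn and Lum) stood at a median of 2.24%, 2.42% and 2.53% of theirs. How much of the Timp2 of the low classes comes from free RNA was not tested.

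LEC-like cells came next with 692, 763 and 838 CPM of Timp2, and SCH-like cells after them with 370, 440 and 401 CPM. The intervals of FB-like and LEC-like cells, and of LEC-like and SCH-like cells, did not overlap in any library. Below them the order changed between libraries, since VEC-like cells stood at 271, 202 and 258 CPM and PCY-like cells at 256, 282 and 325 CPM. In MC-like cells Timp2 stood at 206, 117 and 191 CPM, and its log2 ratio of Rux over UV, 0.69, turned to −0.12 without doublet removal.

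In HFI-like cells, the hair sheath and shaft lineage, Timp2 went from 43.0 (38.5 to 47.9) CPM in CON to 66.8 (62.2 to 71.6) CPM in UV and 115 (109 to 121) CPM in Rux. The log2 ratios were 0.63 (0.45 to 0.82) and 0.78 (0.65 to 0.91), the only class in which a TIMP gene was higher in both steps. Most of the HFI-like Timp2 UMIs of Rux, 1044 of 1325, came from the cluster led by Tchh and Krt71, which had 81.0, 138 and 235 CPM and held 49, 150 and 163 cells, while the cluster led by Krt71 and Krt73 had 39.7, 43.3 and 38.1 CPM.

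Timp3 was highest in the vessel and nerve classes. In LEC-like cells it stood at 2451 (2412 to 2490) CPM in CON, 2484 (2437 to 2530) CPM in UV and 2698 (2633 to 2764) CPM in Rux, ranks 24, 22 and 16 of all genes detected there. After thinning, 95.8%, 96.8% and 98.6% of LEC-like cells had a Timp3 UMI, against 4.51%, 3.06% and 4.06% of LYM-like cells. The unthinned shares were 97.0%, 99.3% and 100% in LEC-like cells, at median depths of 8392, 8855 and 9819 UMIs with 21, 15 and 3 cells left out of the thinning, and 8.27%, 10.8% and 9.17% in LYM-like cells. The LEC-like log2 ratios were 0.02 (−0.02 to 0.05) and 0.12 (0.08 to 0.16), both within 1.5-fold.

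SCH-like cells followed with 1504, 1577 and 1968 CPM of Timp3 and PCY-like cells with 1453, 1449 and 2032 CPM. Their intervals overlapped in every library. VEC-like cells had 1105, 1261 and 1315 CPM, FB-like cells 409, 460 and 394 CPM and EPI-like cells 294, 219 and 263 CPM, and each of these steps down was larger than the counting intervals in every library. None of these classes was past 1.5-fold, and the widest log2 ratios were 0.49 (0.40 to 0.57) for Rux over UV in PCY-like cells and −0.42 (−0.46 to −0.39) for UV over CON in EPI-like cells.

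The EPI-like Timp3 was uneven over clusters. The small cluster led by Fhod3 and Slc1a3 stood at 1199 CPM in UV and 941 CPM in Rux with 41 and 143 cells, and CON had 8 cells in it. The clusters also moved in different directions. The cluster led by Slc16a7 went from 323 CPM in CON to 145 CPM in UV, a log2 ratio of −1.15 (−1.27 to −1.05) and past 1.5-fold, and the cluster led by Cst6 and Defb6 from 72.3 to 104 CPM, 0.53 (0.34 to 0.71) and within it. In KB-like cells Timp3 was 42.9 (38.4 to 47.8) CPM in CON, 91.3 (80.9 to 103) CPM in UV and 77.3 (67.9 to 87.7) CPM in Rux, a log2 ratio of 1.09 (0.85 to 1.32) for UV over CON. That direction did not hold with other settings, as the ratio was −0.66 without doublet removal, −0.11 at a clustering resolution of 0.8 and −0.011 with a looser cell filter. The KB-like cells also came from different clusters, with 462 of the 534 CON cells but 19 of the 90 UV cells in the cluster led by Fcgbp and Sox6. Within the other KB-like cluster, led by Cstdc5, Timp3 stood at 110, 102 and 105 CPM.

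Timp4 was found mainly in vessel-associated cells. Of its 787, 1478 and 619 UMIs in CON, UV and Rux, VEC-like cells held 41.7%, 52.5% and 37.6%, PCY-like cells 30.1%, 13.6% and 38.6%, and unnamed clusters 22.4%, 28.8% and 18.1%. FB-like cells had 6, 23 and 9 Timp4 UMIs in all, below 1 CPM, and the LYM-like, MC-like and SCH-like classes had none. Outside the VEC-like and PCY-like classes Timp4 thus stood at 8.63 CPM or less in the classes compared. In classes without a Timp4 UMI, the depth sets how low a level could be seen.

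VEC-like cells stood at 118 (105 to 131) CPM of Timp4 in CON, 223 (207 to 239) CPM in UV and 162 (142 to 185) CPM in Rux. PCY-like cells stood at 194 (170 to 221), 124 (108 to 143) and 252 (221 to 287) CPM. The log2 ratios for UV over CON were 0.92 (0.73 to 1.11) in VEC-like cells and −0.64 (−0.92 to −0.37) in PCY-like cells, and for Rux over UV they were −0.45 (−0.67 to −0.24) and 1.02 (0.74 to 1.30). The classes thus had ratios of opposite sign at both steps, a difference that could not be tested with 1 library per condition. The VEC-like ratio of Rux over UV was within 1.5-fold. In PCY-like cells 16 of 208, 13 of 244 and 8 of 116 cells held 50% of the Timp4 UMIs, and 1 Rux cell had 27 of 239. After thinning, 16.0%, 32.9% and 28.3% of VEC-like cells and 22.3%, 14.8% and 24.8% of PCY-like cells had a Timp4 UMI, against 0 of 244, 229 and 345 LYM-like cells, whose exact intervals reach 1.50%, 1.60% and 1.06%. The unthinned shares were 22.2%, 43.2% and 35.3% in VEC-like cells, at median depths of 5534, 5872 and 6452.5 UMIs with 28, 46 and 25 cells left out, and 35.6%, 25.8% and 40.5% in PCY-like cells, at 5592, 5713 and 7615.5 UMIs with 6, 15 and 7 left out.

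Within the VEC-like class all Timp4 UMIs came from 1 of its clusters. The cluster led by Iglc2, Flt1 and Fabp4 stood at 254, 306 and 269 CPM, while the cluster led by the venular adhesion genes Selp and Sele had 0 Timp4 UMIs in all 3 libraries from 197, 97 and 55 cells. The Timp4 cluster held 52.5% of VEC-like cells in CON, 79.8% in UV and 70.1% in Rux. Within it the log2 ratio was 0.27 (0.08 to 0.46) for UV over CON and −0.19 (−0.41 to 0.02) for Rux over UV, both within 1.5-fold. The ratio of the whole class was thus larger than the ratio within this cluster, whose share of the class differed between libraries. An unnamed cluster led by Rgs5 and Fabp4, with markers of both endothelium and pericytes, had 252, 221 and 135 CPM of Timp4 and the highest Timp3 level among clusters with at least 50 cells in every library, 3383, 2615 and 2949 CPM. From UV to Rux its Timp4 level went down, while that of PCY-like cells went from 124 to 252 CPM.

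**Figure D3:**
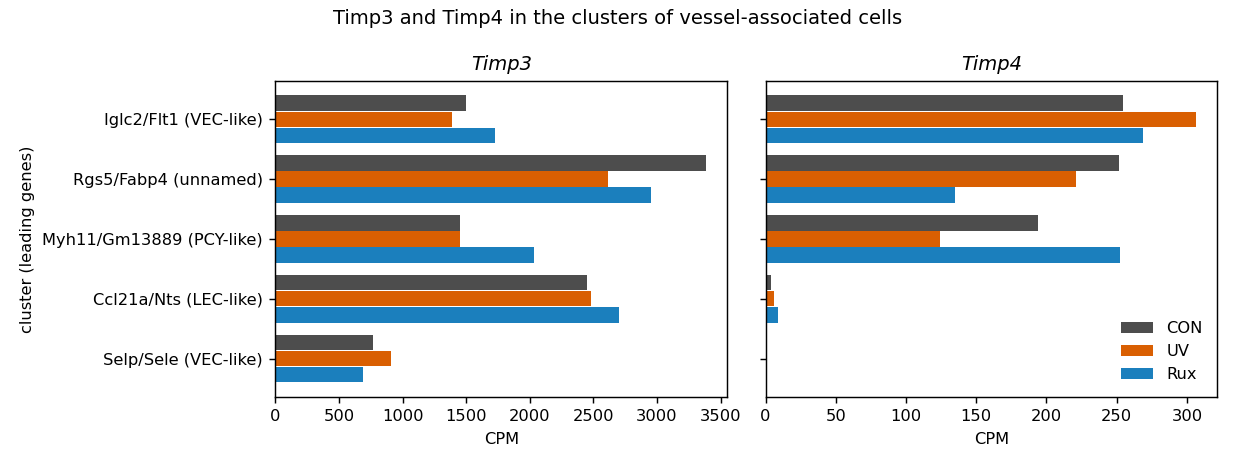
Timp3 and Timp4 levels (CPM, linear axes) in 5 clusters of vessel-associated cells for CON (grey), UV (orange) and Rux (blue), named by their leading genes, with 1 library per bar and no replicates. Timp4 is high in the clusters led by Iglc2, Rgs5 and Myh11, between 124 and 306 CPM, at 3.59 to 8.63 CPM in the lymphatic cluster led by Ccl21a and at 0 in the cluster led by Selp, while Timp3 is between 688 and 3383 CPM in all 5.

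Timp1 was the scarcest TIMP gene of FB-like cells after Timp4 and, of the 3 that entered there, the one with the largest ratio between libraries. Over all cells it stood at 30.8 (29.8 to 31.7) CPM in CON, 66.2 (64.7 to 67.7) CPM in UV and 153 (151 to 156) CPM in Rux. In FB-like cells the levels were 118 (114 to 123), 154 (150 to 158) and 309 (304 to 314) CPM. The FB-like log2 ratio was 0.37 (0.31 to 0.44) for UV over CON, within 1.5-fold, and 1.01 (0.96 to 1.05) for Rux over UV. Fewer or more FB-like cells and less or more RNA per cell are kept apart in the class values but not in the values over all cells, where FB-like cells were 30.5% of CON, 47.4% of UV and 48.8% of Rux cells.

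Outside FB-like cells Timp1 did not move in 1 direction. In MYE-like cells, a class named from macrophage and antigen-presentation genes, it stood at 36.3 (28.3 to 45.9) CPM in CON, 75.2 (63.8 to 88.1) CPM in UV and 65.6 (58.0 to 74.0) CPM in Rux, with log2 ratios of 1.04 (0.63 to 1.48) and −0.20 (−0.49 to 0.10). In PCY-like cells it was lower at both steps, from 152 (131 to 176) CPM to 74.2 (61.5 to 88.8) CPM and 38.0 (26.6 to 52.6) CPM, with log2 ratios of −1.04 (−1.38 to −0.70) and −0.95 (−1.55 to −0.42). The PCY-like level of CON rested on few cells, since 3 of 208 cells held 50% of its 186 UMIs and 1 cell had 48. The thinned shares of PCY-like cells with a Timp1 UMI were 8.91% (5.37% to 13.7%), 8.30% (5.07% to 12.7%) and 6.42% (2.62% to 12.8%), and their intervals overlapped. Without thinning they were 18.8%, 23.4% and 19.8%. Without doublet removal the PCY-like ratio of Rux over UV turned to 0.50, so the direction of that step depends on doublet removal. In MYE-like cells the thinned shares were 5.10% (2.74% to 8.56%), 9.25% (5.82% to 13.8%) and 9.09% (6.51% to 12.3%), against 0.820%, 0.873% and 0.870% in LYM-like cells. The MYE-like intervals also overlapped. In CON, UV and Rux 8 of 277, 7 of 240 and 20 of 447 MYE-like cells held 50% of the Timp1 UMIs, and 1 UV cell had 22 of 154. The larger MYE-like cluster, with 806 cells, was led by Igkc, Lyz2 and Ighg2b. The part of antibody-producing cells or of their free RNA in this class was not tested. The unthinned shares were 12.6%, 17.1% and 24.2% in MYE-like cells, at median depths of 6563, 7518.5 and 8924 UMIs with 22, 13 and 29 cells left out, and 3.94%, 2.50% and 4.17% in LYM-like cells. SCH-like cells had 84.4, 88.1 and 55.0 CPM from 34, 50 and 21 UMIs. In SCH-like cells the fibroblast genes gauged above stood at a median of 6.38%, 8.41% and 10.4% of their FB-like level. In PCY-like cells that median was 4.10%, 9.26% and 6.92%. Timp1 stood at 71.3%, 57.4% and 17.8% of its FB-like level in SCH-like cells and 129%, 48.4% and 12.3% in PCY-like cells. The part of free RNA in these Timp1 levels was not tested.

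The higher Timp1 level of FB-like cells in Rux came from few cells. After thinning, 14.3% (13.1% to 15.6%), 16.9% (15.8% to 17.96%) and 17.2% (16.1% to 18.3%) of FB-like cells had a Timp1 UMI in CON, UV and Rux, so the intervals of UV and Rux overlapped, and all 3 shares were above the LYM-like shares just given. Without thinning the shares were 31.3%, 34.0% and 39.9%. Cells with 5 or more Timp1 UMIs after thinning were 0.667%, 1.37% and 2.04% of the class, that is 21, 63 and 90 cells. In Rux 60 of 4535 cells (1.32%) held 50% of the Timp1 UMIs and 1 cell had 414, against 142 of 3289 cells (4.32%) in CON, with a highest cell of 50, and 185 of 4848 cells (3.82%) in UV, with a highest cell of 69. For Timp2 and Timp3 the share of Rux cells that held 50% of the UMIs was 25.4% and 14.2%, near the 26.4% and 16.8% of UV.

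The FB-like cells were divided into 12 subclusters without use of the TIMP genes. Subcluster 9, led by Saa3, Hp, Lcn2, Tnc and Cxcl14, held 417 Rux cells, 10 UV cells and no CON cell. It is nearly only the Rux library and may be that library, not a type. It made up 9.20% of Rux FB-like cells and held 11273 of their 15383 Timp1 UMIs, 73.3%, at a level of 1500 CPM. Of its Rux cells 252 lay in cluster 2, 74 in cluster 1 and 66 in cluster 44, led by Hp and Saa3. Its Rux cells were deeper than those of any other subcluster of the library, with a median of 16440 UMIs and 4012 genes against 13783 UMIs and 3758 genes in the next, and the part of depth and of unremoved doublets in the Timp1 level was not tested.

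**Figure D4:**
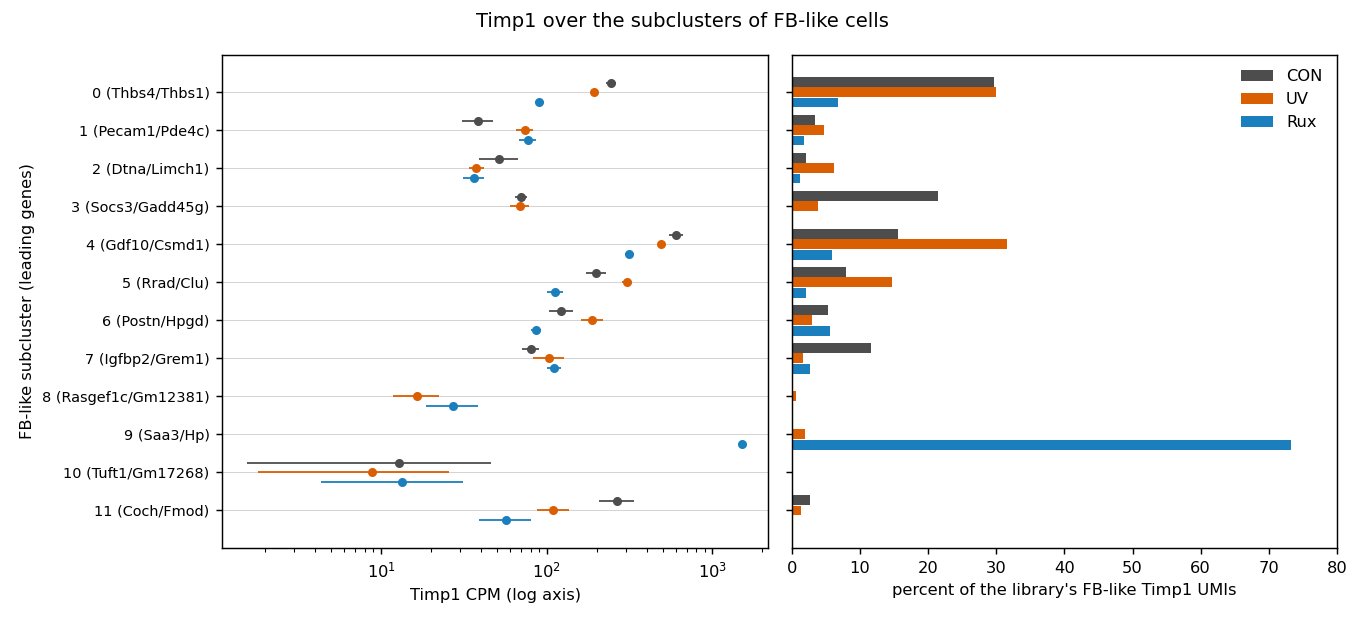
Left, Timp1 level (CPM, log axis) in 12 subclusters of FB-like cells, each with its 2 leading genes, for libraries with at least 20 cells in the subcluster and at least 1 UMI, with exact 95% Poisson intervals that cover counting error only. Right, percent of the FB-like Timp1 UMIs of each library that the subcluster holds, where subcluster 9 holds 73.3% in Rux and 1.99% in UV.

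Without subcluster 9 the FB-like Timp1 level was 118, 151 and 97.2 CPM in CON, UV and Rux, and the log2 ratio of Rux over UV turned from 1.01 to −0.64 (−0.69 to −0.58). That view was chosen after the data were seen. Subcluster 9 was picked as the one with most Timp1 UMIs of Rux, so leaving it out lowers the Rux level by construction. With the subclusters weighted as in CON, which gives subcluster 9 no weight, the ratio was −0.66, and with equal weight for every cell it was 0.34. The weighting as in CON leans on subcluster 3, the largest of CON with 1129 cells, where Rux had 16 cells. Outside subcluster 9 the FB-like Timp1 level was lower in Rux than in UV, which follows in part from how that subcluster was picked. For UV over CON the ratio with the subclusters weighted as in CON was 0.03 for Timp1, −0.0010 for Timp2 and 0.00024 for Timp3. Single subclusters went both ways behind these values, with Timp1 ratios of UV over CON from −0.47 to 0.94 over the 8 subclusters with at least 50 cells and more than 3 UMIs in both libraries. The interval lay above 0 in 4 of them and below 0 in 3, and for Timp2 and Timp3 above 0 in 2 and below 0 in 6 of 10 subclusters. These intervals cover counting error only and can leave out 0 at small ratios. For Timp2 and for Timp3, 1 of 10 subclusters was past 1.5-fold.

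Of the subclusters with at least 50 cells and more than 3 Timp1 UMIs in both libraries, 3 of 8 were higher and 0 lower in UV than in CON, and 1 of 9 was higher and 5 lower in Rux than in UV. The background of 14.4% and 8.78% of genes past 1.5-fold is that of the whole class. Subcluster 4, led by Gdf10 and Csmd1, had the highest Timp1 level of the shared subclusters, 600 CPM in CON, 491 CPM in UV and 315 CPM in Rux. In subcluster 0, led by Thbs4 and Thbs1 and the largest, Timp1 stood at 245, 193 and 90.1 CPM, and in subcluster 5, led by Rrad and Clu, at 198, 305 and 112 CPM. These 3 went down from UV to Rux by log2 ratios of −0.64 (−0.76 to −0.52), −1.10 (−1.21 to −0.99) and −1.44 (−1.63 to −1.26). At a resolution of 0.3, with 10 subclusters, the subcluster led by Saa3, Hp and Postn held 93, 89 and 1055 cells with 124, 276 and 710 CPM of Timp1 and 78.6% of the Timp1 UMIs of Rux. At that resolution 3 of 10 subclusters were higher in Rux than in UV, with no minimum of UMIs set. Those led by Saa3 (1.36) and by Rasgef1c (0.87) were among them. The 2 lower ones were led by Thbs4 (−1.35) and by Coch (−0.94). The finer division had 1 higher and 5 lower, so the count depends on how finely the cells are divided. Subcluster 8 had 0 Timp1 UMIs in CON, so no fold was taken against it. Timp2 and Timp3 stayed closer to their class values, as 1 of 10 subclusters was past 1.5-fold for each gene for UV over CON, and 0 of 10 and 2 of 10 were for Rux over UV.

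Subcluster 9 was not high in every TIMP gene. Against the other FB-like cells of Rux, Timp1 was higher by 3.95 on the log2 scale, while Timp2 stood at 941 against 1757 CPM and Timp3 at 114 against 444 CPM, log2 differences of −0.90 and −1.95. The subcluster was picked by its Timp1 UMIs, so the Timp1 difference is not an independent result. Timp1 was the leading TIMP of these cells and Timp2 of all other FB-like cells. The genes that clustered these cells are described and not tested. Of a list of 12 genes known as STAT3-inducible, 11 had enough UMIs, 6 were higher and 2 lower. In the same comparison 24.0% of all genes were past 1.5-fold, with 9.12% higher and 14.9% lower. Saa3, Hp and Lcn2 lead the subcluster and took part in its definition, so nothing is read from the count. The acute-phase genes Saa3 (5233 against 65.4 CPM), Hp (865 against 24.0 CPM) and Lcn2 (408 against 15.1 CPM), the protease inhibitor gene Serpina3n (1557 against 313 CPM) and the gene of the stromelysin Mmp3 (1781 against 441 CPM) were higher. Socs3, the feedback inhibitor of JAK-STAT signalling, stood at 97.0 against 134 CPM, and Il6 at 490 against 525 CPM.

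All 7 fibroblast markers were detected in subcluster 9, with Col1a1 at 5617 against 3891 CPM, Pdgfra at 334 against 307 CPM and Dcn at 9036 against 10400 CPM. The 8 myeloid markers summed to 27.7 CPM against 33.0 CPM in the other FB-like cells, with C1qa at 0.532 CPM, and the 6 neutrophil markers to 40.2 against 19.9 CPM, of which S100a8 and S100a9 made up 16.9 and 20.4 CPM and Csf3r and Cxcr2 0.266 and 0.399 CPM. The 7 pericyte markers summed to 92.8 against 103 CPM. The myeloid and pericyte sums were thus no higher in subcluster 9 than in the other FB-like cells, and the neutrophil sum was higher but under 50 CPM.

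**Figure D5:**
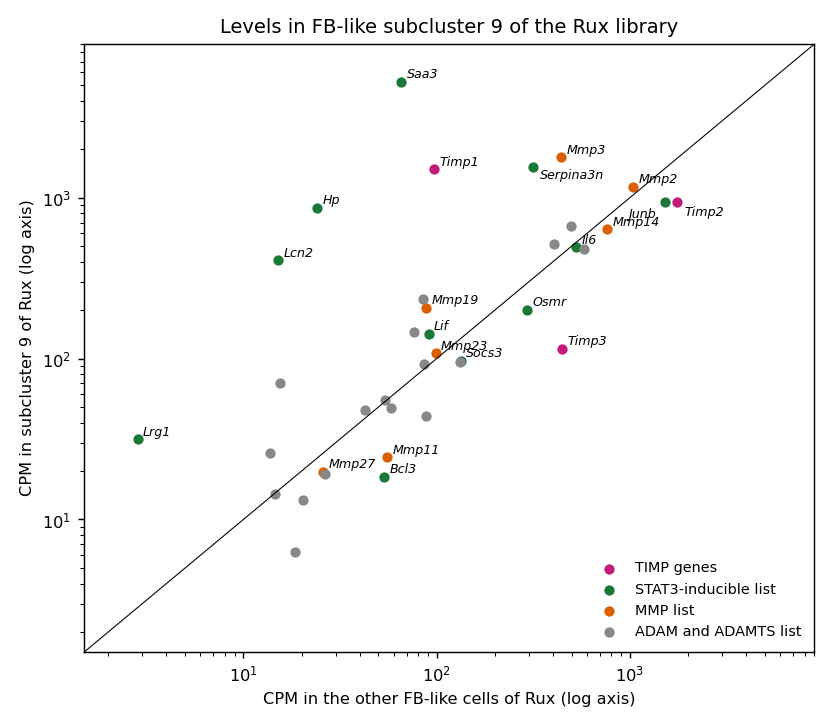
Level of TIMP genes, STAT3-inducible genes, MMP genes and unlabelled ADAM and ADAMTS genes (both axes CPM, log scale) in subcluster 9 of Rux against the other FB-like cells of Rux, for genes whose mean level was 10 CPM or more, with the line of equal levels. Timp1 lies above the line with Saa3, Hp, Lcn2, Serpina3n and Mmp3, and Timp2 and Timp3 lie below it.

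The targets of the TIMPs were set beside them. Of 22 MMP genes in the matrices, 7 had enough UMIs in FB-like cells, and 1 was higher and 0 lower in UV than in CON, and 3 higher and 0 lower in Rux than in UV. Over all genes 6.50% were higher and 7.89% lower at the first step, and 3.37% and 5.41% at the second. Mmp3, which cleaves many matrix proteins, stood at 273, 414 and 643 CPM, Mmp19 at 42.1, 38.0 and 106 CPM and Mmp11 at 12.9, 12.8 and 50.6 CPM. Without subcluster 9 the Rux over UV log2 ratio of Mmp3 dropped from 0.64 to 0.11, while that of Mmp19 was 1.25 and that of Mmp11 was 2.12. Mmp2, the gelatinase whose activation uses Timp2, stood at 757, 799 and 1058 CPM, and its activator Mmp14 at 668, 511 and 742 CPM.

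Of 20 ADAM and ADAMTS genes, 15 entered for UV over CON with 3 higher and 3 lower, and 17 for Rux over UV with 3 higher and 2 lower. For this list and those below, 6.50% of all genes were higher and 7.89% lower for UV over CON. For Rux over UV the shares were 3.37% and 5.41%. Adamts1 and Adamts5, proteases that Timp3 can block, stood at 589, 792 and 523 CPM and at 290, 466 and 423 CPM. Adamts4, of the same list, was lower at both steps, with 166, 67.6 and 16.6 CPM. None of the 5 binding partners of TIMPs that entered was past 1.5-fold, among them Cd63, a Timp1 receptor, with 973, 758 and 900 CPM, and Lrp1, an uptake receptor, with 648, 615 and 711 CPM. Of the other extracellular protease inhibitors, 1 of 9 was higher and 1 lower in UV, and 3 of 10 higher and 1 lower in Rux than in UV. The STAT3-inducible list had 3 of 10 higher and 3 lower in UV than in CON, and 5 higher and 2 lower in Rux than in UV. Saa3, Hp, Lcn2, Serpina3n and Lif were the 5, and Socs3 (431 to 128 CPM) and Il6 (1169 to 520 CPM) the 2. Saa3, Hp and Lcn2 also lead subcluster 9, so nothing is read from this count. Without subcluster 9 the log2 ratio of Saa3 went from 3.25 to −0.26 and that of Serpina3n from 0.97 to 0.32, while that of Socs3 was −1.69.

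For each MMP UMI, FB-like cells had 1.19, 1.23 and 0.852 TIMP UMIs in CON, UV and Rux. LEC-like cells had 30.6, 24.1 and 20.8, VEC-like cells 10.98, 11.7 and 9.72, PCY-like cells 10.6, 7.92 and 8.80, and EPI-like cells 2.83, 1.88 and 1.78. The vascular classes thus carried many TIMP transcripts per MMP transcript and FB-like cells near 1 per MMP transcript, a count of RNA and not of protein or activity. MYE-like cells had 0.696, 0.213 and 0.244, the lowest of the 11 classes in UV and Rux, and KB-like cells 0.475, 0.824 and 0.286. In MYE-like cells the TIMP sum stood at 265, 293 and 235 CPM, while the MMP sum went from 381 to 1378 and 965 CPM. Mmp13, a collagenase, stood in these cells at 0.519, 548 and 42.6 CPM in CON, UV and Rux, from 1, 1122 and 172 UMIs. Mmp12, the macrophage elastase, stood at 29.6, 248 and 167 CPM, from 57, 507 and 673 UMIs.

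FB-like cells held a larger part of the TIMP transcripts in UV and Rux than in CON. They were 30.5%, 47.4% and 48.8% of the cells and held 15.5%, 31.3% and 43.0% of all UMIs. They held 59.7%, 72.6% and 86.6% of all Timp1 UMIs of CON, UV and Rux and 67.3%, 79.96% and 82.6% of the Timp2 UMIs, and subcluster 9 alone held 73.3% of the Timp1 UMIs of Rux FB-like cells. Of Timp3 they held 16.1%, 32.0% and 43.3%, while EPI-like cells went from 34.0% to 15.0% and 15.4% and LEC-like cells from 26.98% to 20.7% and 14.5%. EPI-like cells were 23.5%, 13.3% and 11.5% of cells and LEC-like cells 3.96%, 2.93% and 1.59%. These shares describe the dissociated cells, and cell loss during dissociation and a change in the skin cannot be told apart.

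Counted per cell at 2000 UMIs, 45.0%, 50.1% and 47.1% of FB-like cells had UMIs of exactly 2 TIMP genes and 5.84%, 3.56% and 4.64% of none. LEC-like cells had exactly 2 in 66.0%, 67.7% and 78.6%, and LYM-like cells had none in 84.8%, 71.6% and 79.7%.

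Over the 46 clusters, with the 3 libraries summed, the gene most like Timp1 by Pearson correlation of log2(CPM + 10) was Serpina3n (r = 0.86), followed by Layn, Col5a3, Efemp2 and Lox, all with their highest level in a fibroblast cluster. For Timp2 it was Serping1 (r = 0.91), followed by Aebp1, Cpq, C1ra and Mxra8. For Timp3 it was Hspg2 (r = 0.89), the gene of the basement membrane protein perlecan, followed by Syn3, Sntb2, Cuedc1 and Rab13. For Timp4 it was Tcf15 (r = 0.97), followed by Rgs5, Gja4, Sept4 and Aqp7. These correlations describe clusters that share libraries and cell lineages, and 9661 genes were ranked. Among the TIMP genes themselves the closest pair was Timp1 and Timp2 (r = 0.71), and Timp4 had r = −0.05 with Timp2 and 0.07 with Timp1.

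Syn3, the host gene of Timp3, was among the genes most like it with r = 0.85. Of the 3 synapsin genes, Syn3 alone had enough UMIs in FB-like cells for a ratio, and it was past 1.5-fold in neither comparison. Over all cells Syn1 stood at 1.93, 2.87 and 1.86 CPM, Syn2 at 1.42, 2.35 and 1.81 CPM and Syn3 at 15.9, 16.1 and 14.8 CPM. For 100 Timp3 UMIs there were 2.49 Syn3 UMIs in VEC-like cells, 2.61 in FB-like cells, 3.33 in LEC-like cells and 30.2 in MYE-like cells. The exons of Timp1 overlap no exon of its host, those of Timp3 overlap in 1 pair of annotated exons and those of Timp4 in 6. Exons of all transcripts were paired, so 1 overlapping stretch can count more than once. Whether the counting kept the strands apart is not given in the sources used here, so the part of reads from the opposite strand in Syn3 or in the TIMP genes was not tested.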

How the data were processed

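Dorsal skin was profiled with the 10x Genomics 3′ chemistry, and the authors deposited raw UMI counts for each gene of each cell, from Cell Ranger against mm10. The version is 7.0.0 in the file headers and 6.1.2 in the submitters' processing notes. Cells were kept from 200 detected genes upwards if mitochondrial UMIs made up 10% or less. Scrublet's own threshold marked 0, 0 and 238 cells of CON, UV and Rux, so the highest scores were removed at 0.8% per 1000 barcodes (1269, 1128 and 923 cells). Seurat 5.3.0 clustered the cells on 2000 variable genes without the TIMP genes (30 components, resolution 1.5, no batch correction), and FB-like cells again (20 components, resolution 0.5). Of 46 clusters, 6 stayed unnamed. UMIs were summed per class and library, scaled to CPM, and compared as log2 ratios with 0.5 UMI added to each sum. Calculations used Python 3.11.15, scipy 1.17.1 and scanpy 1.11.5. The genes named beside the TIMPs come from lists of proteases, partners, inhibitors, STAT3-inducible genes and synapsins and from a ranking of correlations. The members and lists were chosen with earlier results of these data known. Scripts were tested on simulated data.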

Additional observations from a re-analysis of the deposited data

Results flagged for a closer look

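Classes of cells moved in opposite directions under the same contrast for 3 pairs of values, and none of these differences was tested, since each condition has 1 library. The Timp1 log2 ratio of UV over CON was 1.04 in MYE-like cells and −1.04 in PCY-like cells. Both rested on few cells, as 7 of 240 MYE-like cells of UV and 3 of 208 PCY-like cells of CON held 50% of the Timp1 UMIs. The Timp1 ratio of Rux over UV was 1.01 in FB-like cells and −0.95 in PCY-like cells. The PCY-like direction did not hold throughout, since the ratio was 0.50 without doublet removal. Without subcluster 9 the FB-like ratio was −0.64. That subcluster was picked by its Timp1 UMIs of Rux, so leaving it out lowers the Rux level by construction and does not test the direction. For Timp4, VEC-like cells had a ratio of UV over CON of 0.92, whereas that of PCY-like cells was −0.64. All Timp4 UMIs of VEC-like cells in CON and UV lay in the cluster led by Iglc2 and Flt1, which held 52.5% of the VEC-like cells of CON and 79.8% of those of UV, and within that cluster the ratio was 0.27 (0.081 to 0.46), within 1.5-fold.

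Clusters that received no class name, and so entered no class comparison, also held TIMP genes past 1.5-fold above the level in CON. Only rises over CON were flagged, so the direction of the cases listed here follows from the rule. Levels also went down in such clusters. From CON to Rux, Timp4 went from 252 to 135 CPM in the cluster led by Rgs5. Timp3 went from 276 to 145 CPM in the cluster led by Adgrb3 at the same step. From CON to UV, Timp3 went from 141 to 79.5 CPM in the cluster led by Cfd. In the cluster led by Gdf10, Timp1 went from 359 CPM in CON to 584 CPM in UV, a log2 ratio of 0.70 (0.55 to 0.85), where 17.1% of all genes were past 1.5-fold in either direction. In the cluster led by Lrrc15, Timp2 and Timp3 went from 426 to 694 CPM and from 139 to 256 CPM in UV, ratios of 0.70 (0.59 to 0.82) and 0.88 (0.68 to 1.09), against 29.4% of all genes past 1.5-fold. In Rux the same cluster had 166 CPM of Timp1 against 87.3 in CON, 950 CPM of Timp2 and 406 CPM of Timp3, ratios over CON of 0.92 (0.69 to 1.16), 1.16 (1.05 to 1.26) and 1.55 (1.37 to 1.73). In that comparison, with 459 cells of Rux and 121 of CON, 37.4% of all genes were past 1.5-fold. Timp2 in the vessel cluster led by Rgs5 went from 81.5 CPM in CON to 149 CPM in Rux, 0.86 (0.39 to 1.36), against 26.5% of all genes, and in the cluster led by Cfd from 23.3 CPM in CON to 67.4 CPM in UV, 1.52 (0.95 to 2.15), against 18.7%.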

How the results depend on the processing

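No paired analysis was possible because each condition has 1 library and no replicate numbers. Subcluster 9 was picked after the data were seen, by the Timp1 UMIs of Rux. Without it the FB-like ratio of Rux over UV was −0.64 for Timp1, −0.032 for Timp2 and −0.056 for Timp3. With FB-like subclusters weighted as in CON that ratio was −0.66, 0.051 and 0.28 for Timp1 to Timp3. For Timp4 it was −4.16, but the 9 Timp4 UMIs of Rux and 23 of UV were too few for a ratio. The Rux values under this weighting, also that of Timp3, lean on subcluster 3, which had 1129 cells in CON but 16 in Rux. The ratio of UV over CON in this setting was 0.034, −0.0010 and 0.00024 for Timp1 to Timp3. With equal weight per cell these were 0.47, 0.14 and 0.13 for UV over CON and 0.34, −0.077 and −0.17 for Rux over UV. Median-of-ratios scaling gave 0.47, 0.17 and 0.27, and then 1.06, −0.082 and −0.17. The strict cell filter (500 genes, 5% mitochondrial UMIs) gave 0.53, 0.046 and 0.072 for UV over CON, and 1.06 for Timp1 and −0.17 for Timp3 for Rux over UV. Adding the clusters led by Gdf10 and Lrrc15, also chosen after the data were seen, gave 0.10 for Timp2 and 0.21 for Timp3 for UV over CON, and 0.82 for Timp1 and −0.16 for Timp2 for Rux over UV. With TIMP genes kept in the clustering the Timp1 ratio of Rux over UV was 0.95. Apart from the 2 views in which it was negative and equal weight, the Timp1 ratio of Rux over UV stayed past 1.5-fold. The cause of these shifts was not tested.

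In the other classes 44 of 52 ratios kept their side of 1.5-fold without doublet removal, 46 with equal weight per cell, 47 with the strict filter, 49 with the loose filter (20% mitochondrial UMIs), 50 with median-of-ratios scaling, 51 at resolution 0.8, and 52 both with TIMP genes kept and with totals that lack haemoglobin, keratin and mitochondrial genes. Timp3 of UV over CON in KB-like cells turned to −0.011 with the loose filter, −0.66 without doublet removal and −0.11 at resolution 0.8. Without doublet removal, Timp1 in PCY-like cells and Timp2 in MC-like cells turned to 0.50 and −0.12 for Rux over UV. At 2-fold the FB-like background was 4.58% and 2.63% of genes, and with a mean of 50 CPM it was 13.7% and 7.51%. Timp4 outside VEC-like and PCY-like cells fell short of the 10 CPM or 50 UMIs needed for a ratio. The same held for Timp1 in EPI-like, HFI-like, LYM-like, KB-like and MC-like cells.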
